A study of Rattus norvegicus with 30 samples.

Results

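The genes described here encode the nuclear subunits of the mitochondrial oxidative phosphorylation system, followed in sciatic nerve (SN) and dorsal root ganglia (DRG) of rats after resection of a nerve segment. Members are the array probes whose gene name starts with Nduf plus a subunit letter and number, with Cox4 to Cox8, with Atp5 plus a letter or with Uqcr, or is Sdha, Sdhb, Sdhc or Sdhd. The rule found 98 of 41012 probes, with 78 gene names, of which 14 names had several probes. Of the 98 probes, 84 are called transcript-strand subunit probes here, because they were not opposite to a probe of the same gene designed on a known transcript. Another 9 probes, of 8 gene names, lay on the opposite strand. The remaining 5 probes, named Cox4nb, Cox7a2l, Atp5s and Atp5sl, belong to genes that share a name but are not subunits of the core complexes. By complex, 40 probes were assigned to complex I, 4 to complex II, 10 to complex III, 21 to complex IV and 18 to complex V.

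RNA came from adult male Sprague-Dawley rats in which a segment of the left sciatic nerve had been removed, and tissue was taken on day 0, 1, 4, 7 or 14 (d) post nerve transection, with 3 arrays per tissue and day and 30 arrays in all. The 0 d groups served as controls. Lumbar DRG and a piece of SN, proximal to the injury by the paper's methods, were taken from these animals. The labels do not state which rats, or how many, stand behind each array, so all p-values below measure the spread between arrays. Both tissues are mixtures of cells, in which fewer cells of a type and less RNA per cell cannot be told apart.

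Oxidative phosphorylation couples the oxidation of NADH and succinate to ATP synthesis in the inner mitochondrial membrane. Complex I and complex II pass electrons to ubiquinone, complex III passes them on to cytochrome c, complex IV reduces oxygen, and complex V, the ATP synthase, uses the proton gradient built by complexes I, III and IV. In peripheral nerve the pathway feeds axonal transport and ion pumping, while Schwann cells and infiltrating leukocytes also draw on glycolysis, and several subunits of complex IV exist in isoforms restricted to heart and skeletal muscle.

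Promoters of 4 members that are described below are shown first, because nuclear subunit genes are known to share binding motifs of a few transcription factors. The 250 bases before the RefSeq gene start (build GRCr8) are given 5′ to 3′ on the gene's strand, and capitals mark the NRF-1 core (GCATGCGC or its reverse complement GCGCATGC) and the YY1 core (AAGATGGC or its reverse complement GCCATCTT). Ndufa11, Ndufa6 and Atp5i fell in SN on every day, and Uqcrc1 rose at 1 d. Ndufa11 lies at chr9:1637364-1637613 (+ strand), Ndufa6 at chr7:115750318-115750567 (− strand), Atp5i at chr14:1464610-1464859 (+ strand) and Uqcrc1 at chr8:118467973-118468222 (+ strand).
Ndufa11: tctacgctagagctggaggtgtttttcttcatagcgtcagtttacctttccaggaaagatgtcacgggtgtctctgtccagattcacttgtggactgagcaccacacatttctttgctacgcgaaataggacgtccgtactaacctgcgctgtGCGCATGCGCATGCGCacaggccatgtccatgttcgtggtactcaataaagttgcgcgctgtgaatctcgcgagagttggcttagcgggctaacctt
Ndufa6: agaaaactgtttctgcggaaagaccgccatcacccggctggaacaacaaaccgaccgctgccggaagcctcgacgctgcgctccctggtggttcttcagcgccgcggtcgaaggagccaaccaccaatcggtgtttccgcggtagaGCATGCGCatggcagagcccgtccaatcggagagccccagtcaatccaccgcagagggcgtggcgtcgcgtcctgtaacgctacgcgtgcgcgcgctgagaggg
Atp5i: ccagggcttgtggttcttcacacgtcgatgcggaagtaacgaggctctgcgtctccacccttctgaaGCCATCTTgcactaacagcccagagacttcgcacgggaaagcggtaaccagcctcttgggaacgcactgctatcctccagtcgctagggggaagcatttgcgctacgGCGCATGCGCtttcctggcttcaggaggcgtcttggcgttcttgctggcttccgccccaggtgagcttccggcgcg
Uqcrc1: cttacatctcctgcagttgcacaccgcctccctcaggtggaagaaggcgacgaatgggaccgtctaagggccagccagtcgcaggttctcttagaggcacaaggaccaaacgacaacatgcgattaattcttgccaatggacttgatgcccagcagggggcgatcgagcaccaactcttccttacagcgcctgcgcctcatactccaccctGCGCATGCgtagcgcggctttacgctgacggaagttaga

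All 4 promoters printed carry the NRF-1 core, which most subunit promoters lack, so they do not stand for the members at large. They belong to members that fell and to 1 that rose. The core was not found for Ndufa7, which also fell. Of 74 subunit gene names, 61 matched a promoter in the table, and all 27457 promoters were searched in the same window, from 250 bases before to 50 bases after the start, on both strands. The NRF-1 core was found in 9 of the 61 subunit promoters, 14.8%, against 2.66% of all promoters. The YY1 core was found in 13, 21.3%, against 3.44%. The ERR half-site (AAGGTCA or TGACCTT) was found in 10, 16.4%, against 4.37%, and the ETS core (CCGGAAGT or ACTTCCGG) in 7, 11.5%, against 4.01%. At least 1 of the 4 motifs stood in 29 subunit promoters, 47.5%, against 13.6% of all promoters. A match is a description of the sequence and not a site of binding. The 2 forms of a motif and different motifs may overlap, as both forms of the NRF-1 core do in Ndufa11 and in Atp5i.

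A further pair of sequences shows why strand matters for these probes. For Cox7c and Uqcrb the array carries a probe on each strand of the same place, with 51 and 40 complementary bases of 60. The 30 bases shown of each lie in the shared stretch, and the 8 bases in capitals are the same place on either strand. The coordinates, in build rn4, are chr2:15254139-15255000 (− strand) and chr2:15254130-15254991 (+ strand) for Cox7c, and chr7:67958447-67958506 (− strand) and chr7:67958467-67958526 (+ strand) for Uqcrb. Spans over 60 bases were aligned with a gap.
Cox7c, transcript strand: AATAAGGAtatttaattcatcccattaaca
Cox7c, opposite strand: tgttaatgggatgaattaaataTCCTTATT
Uqcrb, transcript strand: TTGCATTTaggaaaagtctgtattccatta
Uqcrb, opposite strand: taatggaatacagacttttcctAAATGCAA

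Levels below are normalized signals, that is log2 of the processed intensity minus the 75th percentile of the same array, and changes are differences of their means. A probe is said to have risen or fallen where the limma test gave a Benjamini-Hochberg adjusted p under 0.05 over all probes tested. Members were bright on this array: 94 of 98 were well above background on all 30 arrays. Of the others, the Uqcrq probe was well above background on 19 arrays, Cox6c1 on 29, the opposite-strand Uqcrb probe on 5 and Cox8c on 1. Filtering left 96 member probes tested in SN and 97 in DRG. Because the members are bright, they were also set beside the 5999 other probes with a mean signal at or above the members' lower quartile of 1.34, called bright probes here.

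One library stood apart before any comparison. The summed level of 10 probes of 9 skeletal muscle genes, on the log2 scale, was 10.97 on SN 0 d replicate 1, 7.14 and 7.61 for the other SN controls, and the 12 later SN arrays ranged from 3.21 to 8.50. All 10 were well above background on every SN 0 d array. Counts of all members against SN 0 d are therefore given with and without that array, and the value of a named gene without it is given where a call printed here changed. Shares of all probes and of the bright probes are given only for fits that include that array. Counts without it, of members or of other lists, therefore have no like share beside them. The neuron list separated the tissues as labelled, at 8.43 to 8.89 in DRG and 2.16 to 2.64 in SN. All 0 d arrays were scanned in 1 of 3 sessions that held no other day, so a scanning difference and the effect of injury cannot be told apart in comparisons with 0 d.

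In uninjured tissue most subunit genes that differed were lower in SN than in DRG. Of 96 member probes, 53 (55.2%) were lower in SN 0 d and 13 (13.5%) higher, with a median difference of −0.34, whereas over all probes tested 30.5% were lower and 45.3% higher. Of the bright probes, 29.3% were lower and 52.5% higher, with a median difference of 0.30. Without SN 0 d replicate 1, 60 member probes were lower and 11 higher. Complex I contributed 24 lower and 5 higher probes, and complex IV 11 lower and 2 higher. Tissue and slide overlapped in part, and with slide as a fixed term 43 were lower and 11 higher, against 27.8% and 41.1% of all probes.

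Ndufa7, an accessory subunit of complex I, differed most. It read −0.13, −0.09 and −0.09 on the SN 0 d arrays and 2.17, 2.09 and 2.22 on the DRG 0 d arrays, a difference of −2.26 ± 0.11 (SE, n = 3 each, limma adjusted p = 1.3e-14). Ndufv1, the flavoprotein subunit that oxidizes NADH, read 2.05, 1.47 and 1.40 in SN against 2.98, 2.99 and 2.86 in DRG, a difference of −1.30 ± 0.11 (limma adjusted p = 2e-10). In both cases the tissues did not overlap. Among complex IV isoforms both directions occurred. Cox6a1, Cox7a2 and Cox8a were lower in SN, by 0.49, 0.66 and 0.53, as was Cox4i1, by 0.41, while Cox6b2, known as the testis form of subunit VIb, was 1.22 ± 0.11 higher in SN (limma adjusted p = 4.3e-10), and Cox4i2, the alternative form of subunit IV, was 0.71 ± 0.10 higher (limma adjusted p = 4.7e-07).

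After injury, a larger share of member probes fell in SN than of all probes, and few rose. At 1 d, 35 of 96 (36.5%) fell and 7 (7.29%) rose, against 24.9% and 36.7% of all probes tested. At 4 d, 35 (36.5%) fell and 8 (8.33%) rose, against 25.2% and 35.9%. The count of falls was 44 (45.8%) at 7 d, with 5 rises (5.21%), against 24.1% and 38.3%, and 44 (45.8%) at 14 d, with 4 rises (4.17%), against 20.8% and 35.3%. The falls were small: no member at 1 d or 14 d, 2 at 4 d and 3 at 7 d fell by more than 2-fold. The member medians were −0.16, −0.23, −0.30 and −0.29 at 1, 4, 7 and 14 d.

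Other bright probes fell in similar shares and rose more often, a difference that was not tested. Of the bright probes 42.0%, 39.1%, 40.3% and 38.0% fell at 1, 4, 7 and 14 d, close to the members' shares, while 22.8%, 27.7%, 24.2% and 19.8% rose. Bright-probe medians were −0.16, −0.09, −0.11 and −0.11. Without SN 0 d replicate 1, the members that fell numbered 29, 27, 37 and 33 and those that rose 16, 11, 9 and 8, and the member medians moved to −0.07, −0.08, −0.15 and −0.14, against −0.18, −0.11, −0.13 and −0.13 for the bright probes. The shares of all probes and of the bright probes without that array are not given here.

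**Figure D1:**
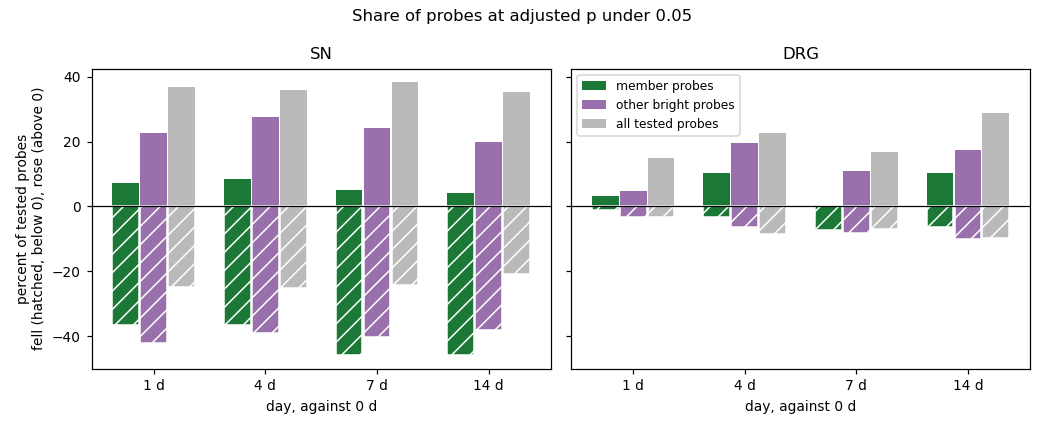
Percent of probes that rose (above 0) or fell (below 0, hatched) at a limma adjusted p under 0.05, for the member probes, the other bright probes and all probes tested, in each tissue at 1, 4, 7 and 14 d against 0 d. In SN the members' falls (36.5% to 45.8%) exceed those of all probes (20.8% to 25.2%) and lie near those of the bright probes (38.0% to 42.0%).

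How many members fell also depended on the scaling. Relative to the median of all probes, which itself shifted by 0.11 to 0.16, the members' median stood at −0.27, −0.38, −0.45 and −0.45 at 1, 4, 7 and 14 d. With quantile normalization it stood at 0.00, −0.09, −0.11 and −0.13, and 27, 25, 27 and 20 members fell, that is 28.1%, 26.0%, 28.1% and 20.8% against 34.1%, 29.9%, 30.3% and 25.2% of all probes. Of the members that fell under the 75th percentile scaling, 24, 24, 26 and 20 also fell under quantile normalization, and none passed in opposite directions. The group's excess of falls over all probes was thus not kept under quantile normalization, whereas the falls of the individual genes named below were kept unless stated.

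**Figure D2:**
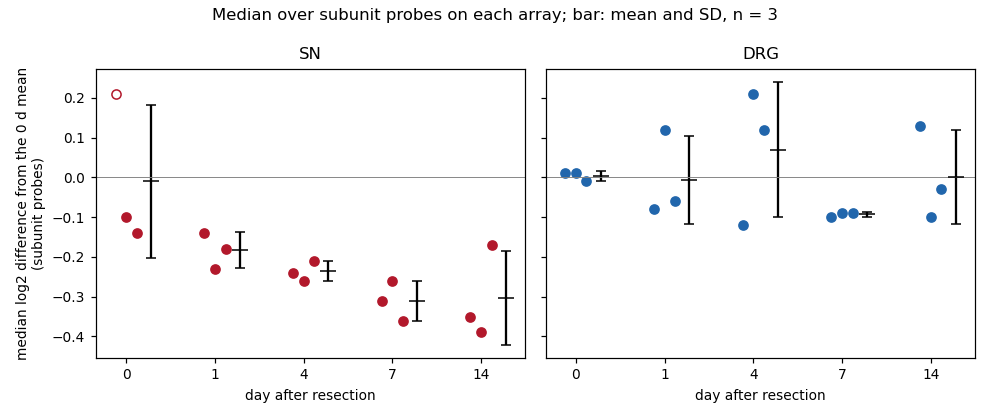
Median normalized signal (log2 scale, each probe relative to its mean at 0 d) over 83 subunit probes on each array, by day, in SN and DRG; bars are the mean ± SD of 3 arrays and the open circle is SN 0 d replicate 1. In SN the value fell from between −0.14 and 0.21 at 0 d to between −0.39 and −0.17 at 14 d, and in DRG the arrays at 7 d lay below those at 0 d while the other days overlapped them.

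The plot of array medians shows how much of the group change hung on 1 control array. Over 83 subunit probes, the median difference from the mean at 0 d was 0.21 on SN 0 d replicate 1 and −0.10 and −0.14 on the other controls. The SN values were −0.14, −0.23 and −0.18 on day 1, −0.24, −0.26 and −0.21 at 4 d, −0.31, −0.26 and −0.36 on day 7 and −0.35, −0.39 and −0.17 at 14 d. At 4, 7 and 14 d all SN arrays lay below all 3 controls, while at 1 d 1 array lay level with the lowest control. Other lists moved on the same days. Macrophage markers (10 probes) rose from 4.54 to 4.70 at 0 d to 6.59 to 6.86 at 4 d, cell division markers (5 probes) from 2.63 to 3.32 up to 5.19 to 5.28, and myelin markers (7 probes) fell from 9.72 to 9.95 at 0 d to 8.49 to 8.62 at 7 d, as summed log2 levels. Their part in the members' change was not tested.

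Complex I, which had the most probes, also held the largest number of falling probes in SN. Over all probes tested, 24.9%, 25.2%, 24.1% and 20.8% fell and 36.7%, 35.9%, 38.3% and 35.3% rose at 1, 4, 7 and 14 d. The shares of the bright probes are given above. Of the 37 complex I probes tested, 18, 21, 26 and 27 fell at 1, 4, 7 and 14 d and 2, 1, 1 and 1 rose. Their medians were −0.25, −0.29, −0.37 and −0.39. Without SN 0 d replicate 1, 14, 15, 22 and 22 fell and 4, 2, 2 and 2 rose. Complex III showed 4, 4, 5 and 4 falls among 9 probes, complex V 5, 5, 7 and 7 among 17, and complex II 1, 1, 3 and 2 among 4. Complex IV stood apart in count, with 4, 2, 2 and 3 falls and 3, 3, 2 and 2 rises among 16 probes, and its median without SN 0 d replicate 1 was 0.02, 0.10, −0.01 and 0.00. Differences between complexes were not tested, and counts by complex were not made under quantile normalization.

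**Figure D3:**
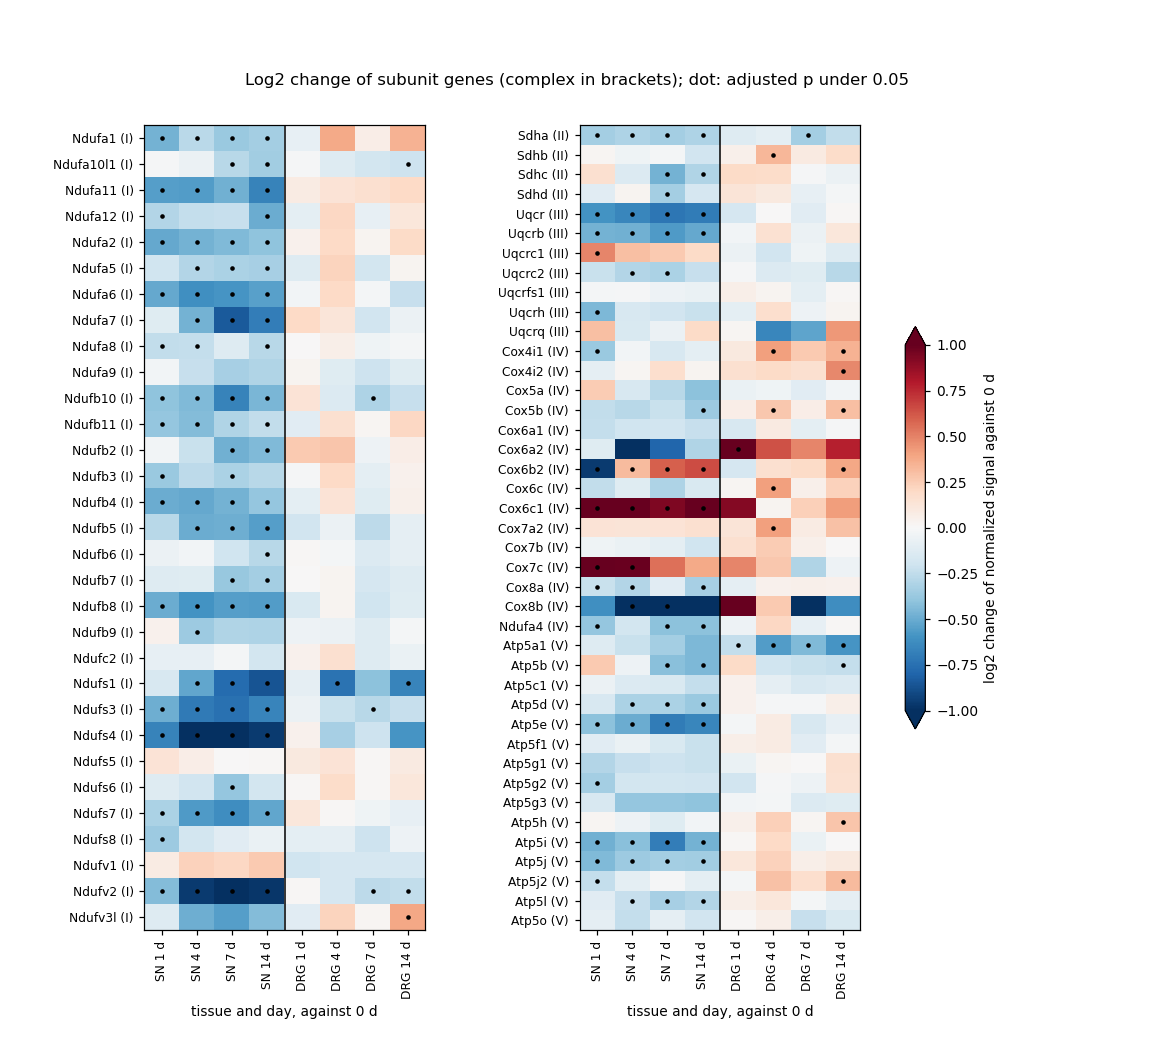
Log2 change of normalized signal against 0 d for 1 probe (that with the highest mean signal) of each subunit gene shown, in SN and DRG at 1, 4, 7 and 14 d; blue is lower, red is higher, the colour scale ends at 1 in either direction, and a dot marks a limma adjusted p under 0.05. Dots are dense among complex I genes in SN and sparse in DRG.

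Ndufv2 and Ndufs4 fell furthest among complex I genes bright enough to be measured on all arrays. Ndufv2, an iron-sulfur subunit of the NADH-oxidizing arm (probe at chr9:104854294-104856104, − strand, aligned with a gap), read 6.24, 5.97 and 5.94 at 0 d, 5.68, 5.59 and 5.60 on day 1, 5.03, 5.16 and 5.08 at 4 d, 4.98, 5.01 and 4.92 on day 7 and 5.01, 5.05 and 5.18 at 14 d. All later arrays lay below all controls. Its change was −0.43 ± 0.09 at 1 d and −1.08 ± 0.09 at 7 d (SE, n = 3 per day, limma adjusted p = 0.001 and 7.7e-07), a 2.12-fold fall at 7 d, and −0.98 at 7 d without SN 0 d replicate 1.

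Ndufs4, an accessory subunit needed for a stable complex I (chr2:45840002-45840061, − strand), read 0.64, 0.42 and 0.63 at 0 d, −0.13, −0.03 and −0.16 on day 1, −0.39, −0.61 and −0.65 at 4 d, −0.61, −0.70 and −0.60 on day 7 and −0.48, −0.17 and −0.54 at 14 d. Again no later array reached the controls, and the lowest day was 7 d, at −1.20 ± 0.11 (limma adjusted p = 1.9e-06). The 7 d change without SN 0 d replicate 1 was −1.17. Its signal in DRG did not pass the test on any day, and 1 DRG array at 14 d read −0.85 beside 0.67 and 0.63.

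Other complex I subunits were already lower at 1 d. Ndufa11, an accessory subunit of the membrane arm, read 2.29, 2.26 and 2.23 at 0 d and 1.66, 1.71 and 1.74 at 1 d, and its change was −0.55 ± 0.07, −0.56 ± 0.07, −0.48 ± 0.07 and −0.67 ± 0.07 at 1, 4, 7 and 14 d (limma adjusted p between 1e-05 and 8.8e-05). Leaving out SN 0 d replicate 1 moved the 4 values to −0.54, −0.54, −0.47 and −0.65. Ndufa6, an accessory subunit of the matrix arm, read 5.61, 5.49 and 5.50 at 0 d and 4.84, 4.92 and 5.01 at 4 d, a change of −0.61 ± 0.08 (limma adjusted p = 3e-05), or −0.57 without SN 0 d replicate 1. Ndufs3, a conserved subunit of the hydrophilic arm, read 4.43, 3.97 and 3.96 at 0 d and 3.42, 3.42 and 3.40 at 4 d, a change of −0.71 ± 0.11 (limma adjusted p = 0.00013), or −0.55 without that array. For each of these 3 genes all 12 later arrays lay below the controls.

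Ndufa7 fell later. From −0.13, −0.09 and −0.09 at 0 d it went to −0.26, −0.21 and −0.18 at 1 d, which missed the threshold (−0.12 ± 0.11, limma adjusted p = 0.38), and to −0.94, −0.97 and −0.93 at 7 d (−0.84 ± 0.11, limma adjusted p = 3.6e-05). Of the catalytic core, Ndufs1, which carries iron-sulfur clusters, read 2.75, 1.85 and 2.02 at 0 d and 1.41, 1.42 and 1.22 at 14 d, a change of −0.86 ± 0.19 (limma adjusted p = 0.0019), with the later arrays apart from the controls. Its 4 d change of −0.52 ± 0.19 passed with all arrays (limma adjusted p = 0.029) and not without SN 0 d replicate 1 (−0.24, limma adjusted p = 0.085) or after quantile normalization (−0.45, limma adjusted p = 0.056).

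Ndufv1 was higher once SN 0 d replicate 1 was left out. It read 2.05, 1.47 and 1.40 at 0 d and 1.90, 1.91 and 1.90 at 14 d, did not pass with all arrays, and without that array was higher by 0.29, 0.44, 0.41 and 0.47 ± 0.08 at 1, 4, 7 and 14 d (limma adjusted p between 0.00057 and 0.0092). Ndufa9 did not pass on any day.

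Complex II, which links the citric acid cycle to the respiratory chain, had 4 probes, of which 3 fell in SN at 7 d with all arrays and 1 without SN 0 d replicate 1. Sdha, its flavoprotein, fell on all 4 days by 0.31 to 0.34 (limma adjusted p between 0.013 and 0.026), but on none of them without SN 0 d replicate 1, where its change was −0.25 to −0.21, nor after quantile normalization. Sdhc, a membrane anchor, read 4.68, 4.54 and 4.66 at 0 d and 4.05, 4.29 and 4.12 at 7 d, a change of −0.47 ± 0.10 (limma adjusted p = 0.0011), which passed without that array too (−0.44, limma adjusted p = 0.0048) and missed the threshold after normexp background correction combined with quantile normalization (−0.15, limma adjusted p = 0.18). At 14 d Sdhc fell by 0.30 (limma adjusted p = 0.018), and without that array its change of −0.28 missed the threshold (limma adjusted p = 0.053). Sdhd, the other anchor, fell at 7 d with all arrays (−0.34, limma adjusted p = 0.026) and not without SN 0 d replicate 1 (−0.17, limma adjusted p = 0.083), and Sdhb, the iron-sulfur subunit, did not pass.

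In complex III, the small subunit Uqcr and 2 of 3 probes of Uqcrb fell on all 4 days, and a core subunit rose at 1 d. Uqcr, now Uqcr11, a small peripheral subunit (chr7:10820937-10820996, + strand), read 5.23, 5.27 and 5.09 at 0 d, 4.62, 4.56 and 4.61 on day 1 and 4.50, 4.40 and 4.60 at 14 d, with every later array below every control. Its change was −0.60 ± 0.07 at 1 d and −0.72 ± 0.07 at 7 d (limma adjusted p = 2.5e-05 and 4.5e-06), and −0.59 and −0.71 without SN 0 d replicate 1. Uqcrb, a ubiquinone-binding subunit, was measured by 3 probes on its transcript strand. The brightest fell by 0.47 to 0.57 (limma adjusted p between 0.00038 and 0.0016), and the one whose sequence is printed above fell from −0.25, −0.41 and −0.30 at 0 d to −1.19, −1.25 and −1.37 at 7 d (−0.95 ± 0.11, limma adjusted p = 1e-05). The remaining Uqcrb probe fell at 7 and 14 d, by 0.50 and 0.38 (limma adjusted p = 0.0082 and 0.036), and without SN 0 d replicate 1 at 7 d alone.

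Uqcrc1, a core subunit of complex III (chr8:113961444-113961503, + strand), depended on the same control array. It read 1.67, 0.75 and 0.76 at 0 d, 1.59, 1.54 and 1.51 on day 1, 1.35, 1.42 and 1.30 at 4 d, 1.36, 1.25 and 1.35 on day 7 and 1.36, 1.27 and 1.13 at 14 d. With all arrays it rose at 1 d (0.49 ± 0.19, limma adjusted p = 0.041) and did not pass later. When SN 0 d replicate 1 was left out it rose on all 4 days, by 0.79, 0.60, 0.56 and 0.50 ± 0.08 (limma adjusted p between 1.7e-05 and 0.00039). Uqcrc2, the other core subunit, fell by 0.29 and 0.32 at 4 and 7 d (limma adjusted p = 0.044 and 0.028), calls that were lost without that array (−0.13 and −0.16) and after quantile normalization (−0.11 at both), and Uqcrfs1, the Rieske iron-sulfur protein, did not pass.

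**Figure D4:**
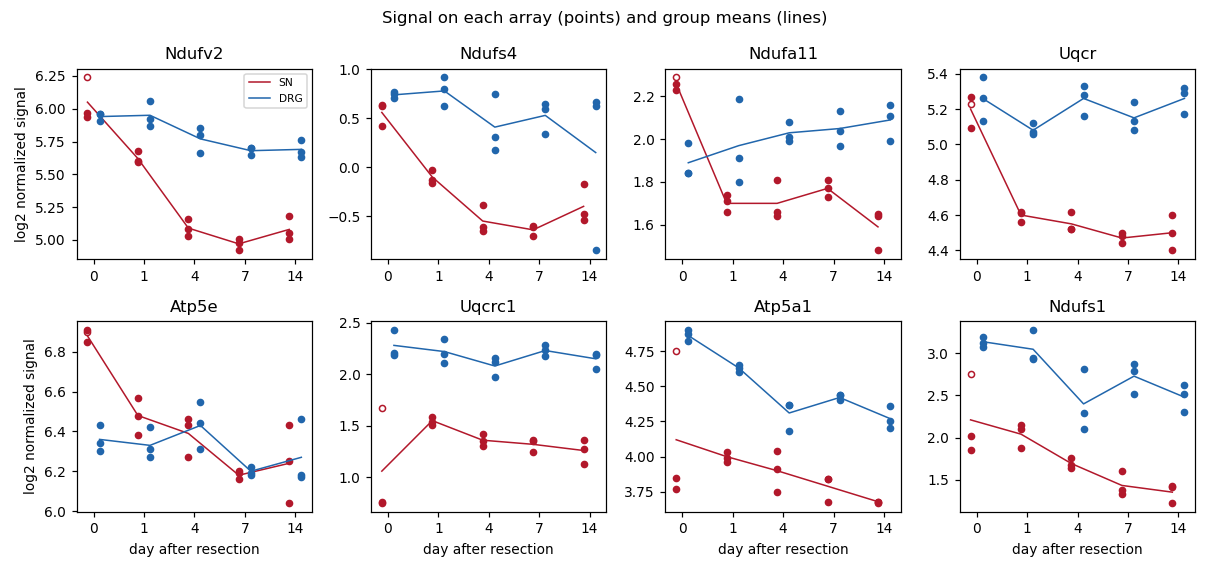
Normalized signal (log2 scale) of Ndufv2, Ndufs4, Ndufa11, Uqcr, Atp5e, Uqcrc1, Atp5a1 and Ndufs1 on each array by day, in SN and DRG; lines join group means and the open circle is SN 0 d replicate 1. Uqcrc1 and Ndufs1 in SN show that array above the other controls (1.67 against 0.75 and 0.76 for Uqcrc1), and Ndufa11 does not (2.29 against 2.26 and 2.23).

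Complex IV isoforms known from heart and skeletal muscle gave the widest spread of all members. Cox8b, the muscle form of subunit VIII (chr1:201057360-201057419, − strand), read 4.77, 0.09 and 0.48 on the SN 0 d arrays, 1.85, 0.14 and 1.51 on day 1, −2.17, −3.79 and −2.28 at 4 d, −3.75, −0.37 and −0.54 on day 7 and 0.36, −0.05 and 1.55 at 14 d. The 4 d arrays lay below all controls, and the 1 d and 14 d arrays overlapped them. Its change was −4.53 ± 1.19 at 4 d (limma adjusted p = 0.0056), or −3.03 without SN 0 d replicate 1 (limma adjusted p = 0.018), and −3.33 ± 1.19 at 7 d (limma adjusted p = 0.028), or −1.84 without it (limma adjusted p = 0.12). Cox6a2, the muscle form of subunit VIa, read 3.35 on SN 0 d replicate 1 and −0.48 and −0.32 on the other controls. It did not pass with all arrays, and without that array was higher at 1 d (1.13, limma adjusted p = 0.0067) and 14 d (0.95, limma adjusted p = 0.019).

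Cox8b followed the skeletal muscle list across arrays in either tissue. Over 15 SN arrays its signal and the summed muscle level had r = 0.99 and rho = 0.98 (permutation p = 1e-05 for each, the smallest that 100000 resamples can give, adjusted 2e-05 over 4 relations), and r = 0.98 without the 2 arrays farthest from the median. Over 15 DRG arrays r was 0.97 and rho 0.96, and 0.96 without the 2 farthest. For Cox6a2 r was 0.76 in SN and 0.73 in DRG, and 0.69 and 0.70 without the 2 farthest. The arrays include different days, so that these values describe how the signals ran together and not a relation within a group. Of the muscle list's 10 probes, 10 fell at 4 d and 8 at 7 d in SN, and none at 1 or 14 d.

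**Figure D5:**
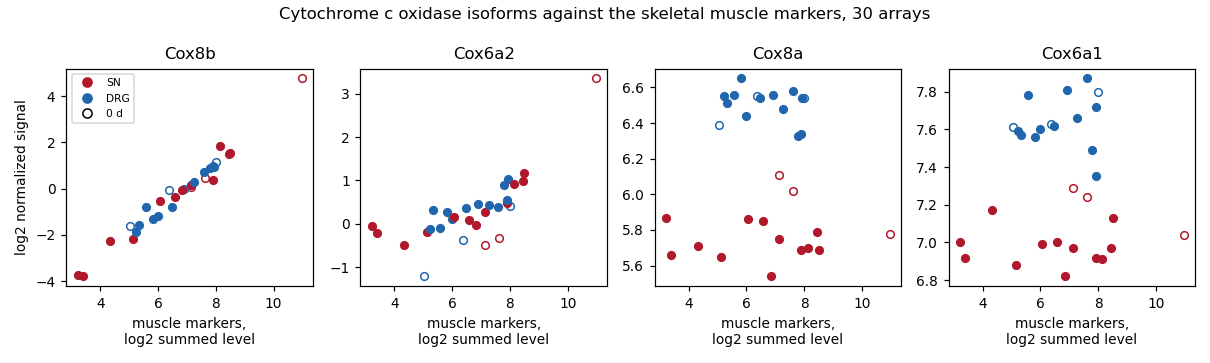
Normalized signal (log2 scale) of Cox8b, Cox6a2, Cox8a and Cox6a1 against the log2 summed level of 10 skeletal muscle probes on 30 arrays; open symbols are 0 d. Cox8b and Cox6a2, the muscle isoforms, lie highest on the SN array with the highest muscle level (10.97), whereas Cox8a and Cox6a1, the isoforms of other tissues, do not.

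The isoforms of the other tissues did not share this pattern. Cox8a read 5.78 on SN 0 d replicate 1 and 6.11 and 6.02 on the other controls, and fell by 0.22, 0.29 and 0.33 at 1, 4 and 14 d (limma adjusted p between 0.0051 and 0.036). After SN 0 d replicate 1 was left out it fell on all 4 days by 0.20 to 0.42, and after quantile normalization on none of the 3 days (−0.18 to −0.06). Cox6a1 read 7.04, 7.29 and 7.24 at 0 d and did not pass with all arrays, but without that array it too fell on all 4 days, by 0.27 to 0.32 (limma adjusted p between 0.02 and 0.043). Cox4i1, the common form of the regulatory subunit IV, fell in SN at 1 d (−0.37 ± 0.11, limma adjusted p = 0.012), a call that quantile normalization ended (−0.19, limma adjusted p = 0.12), and Cox4i2 did not pass in SN.

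Cox6b2 changed sign during the time course. It read −1.65, −1.44 and −1.55 at 0 d, fell to −2.50, −2.36 and −2.66 at 1 d, stood at −1.33, −1.22 and −1.14 at 4 d, and then reached −0.95, −0.98 and −0.91 at 7 d and −0.94, −0.96 and −0.77 at 14 d. None of the later groups overlapped the controls. The changes were −0.96 ± 0.09, 0.32 ± 0.09, 0.60 ± 0.09 and 0.65 ± 0.09 (limma adjusted p = 5.3e-06, 0.011, 0.00014 and 9.8e-05), and without SN 0 d replicate 1 −1.02, 0.26, 0.55 and 0.60, all past the threshold. Ndufa4, now counted as a subunit of complex IV, fell by 0.39 to 0.41 at 1, 7 and 14 d with all arrays, without SN 0 d replicate 1 at 7 d alone (−0.22, limma adjusted p = 0.044), and after quantile normalization on none of these days. Cox5a, a subunit of the matrix side, did not pass with all arrays and rose at 1 d without that array (0.53, limma adjusted p = 0.001), and the forms Cox6b1, Cox7a1 and Ndufa4l2 had no probe under these names.

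In the ATP synthase the small subunits Atp5e and Atp5i fell on all 4 days, and the catalytic ones passed on fewer days or on none. Atp5e, the epsilon subunit of the central stalk (now Atp5f1e), read 6.90, 6.91 and 6.85 at 0 d, 6.38, 6.48 and 6.57 on day 1, 6.43, 6.27 and 6.46 at 4 d, 6.20, 6.19 and 6.16 on day 7 and 6.25, 6.04 and 6.43 at 14 d. All later arrays lay below the controls, and the change was −0.70 ± 0.10 at 7 d (limma adjusted p = 5.4e-05). The array design aligns this probe to chr14:83615848-83615908 (+ strand, rn4), whereas RefSeq places the gene on the − strand of chr3 in GRCr8, so that which locus the signal comes from was not tested. Under quantile normalization Atp5e no longer fell on all 4 days. Atp5i, a membrane subunit now named Atp5me, read 6.94, 6.70 and 6.58 at 0 d and 6.03, 6.10 and 6.02 at 7 d (−0.69 ± 0.10, limma adjusted p = 7.6e-05), or −0.59 without SN 0 d replicate 1.

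Of the catalytic head, Atp5b, the beta subunit, read 4.87, 4.30 and 4.26 at 0 d and 4.04, 4.05 and 4.00 at 14 d (−0.45 ± 0.13, limma adjusted p = 0.012). Its changes without SN 0 d replicate 1 were 0.46 at 1 d and −0.25 at 14 d (limma adjusted p = 0.00045 and 0.017), and after quantile normalization the 14 d change of −0.21 did not pass (limma adjusted p = 0.24). Atp5a1, the alpha subunit, read 4.75, 3.77 and 3.85 at 0 d and 3.68, 3.67 and 3.68 at 14 d and did not pass on any day. Atp5c1, the gamma subunit, did not pass with all arrays and rose at 1 d without SN 0 d replicate 1 (0.21, limma adjusted p = 0.017). Of the 3 genes for the membrane ring, Atp5g1 did not pass, and the probes of Atp5g2 and Atp5g3 differed from each other: one probe of Atp5g2 fell at 1 d (−0.34) while another rose at 4 d (0.28), and for Atp5g3 only the dimmer of 2 probes fell, at 7 d (−0.60) and 14 d (−0.51). Without SN 0 d replicate 1 that probe rose at 1 d (0.59, limma adjusted p = 0.0026) and its 14 d call was lost (−0.25, limma adjusted p = 0.13).

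Across the time course 22 of 96 member probes fell on all 4 days in SN, 3 rose on all 4 days, 2 passed in both directions and 29 passed on none. The 4 comparisons share the same 0 d arrays. How many of all probes or of the bright probes fell on all 4 days was not counted. Whether 22 of 96 exceeds their share is therefore not known. Without SN 0 d replicate 1, 16 of the 22 still fell on all 4 days, and under quantile normalization 14 did. The genes that fell on all 4 days in both of these settings, listed after their values were seen, were Ndufa2, Ndufa6, Ndufa11, Ndufb8, Ndufb10, Ndufs3, Ndufs4 and Ndufv2 of complex I, Uqcr and Uqcrb of complex III and Atp5i of complex V. Atp5s, whose name the rule caught and which is not a subunit, also fell in both. No probe of complex II or IV was among them.

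A group of dim probes rose instead. The second probe of Ndufc2, a membrane-arm subunit of complex I (chr1:154641288-154641951, + strand), read −2.59, −2.89 and −2.48 at 0 d and −0.20, −0.40 and −0.08 at 1 d, a rise of 2.42 ± 0.23 (limma adjusted p = 5.1e-06). The Cox7c probe printed above read 0.15, −0.43 and 0.01 at 0 d and 1.63, 1.67 and 1.82 at 1 d, a rise of 1.80 ± 0.23 (limma adjusted p = 3.5e-05). The Cox6c1 probe, well above background on 2 of 3 control arrays, rose by 2.33 ± 0.33 (limma adjusted p = 7.2e-05). All 3 were higher than every control at 1 d.

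The rise of the Ndufc2 probe was not matched by the brighter probe of that gene. Cox6c1 had no other member probe, and the other Cox7c probe lay on the opposite strand. The brighter probe of Ndufc2 (chr1:154642009-154642068) read 4.87, 4.54 and 4.49 at 0 d and 4.62, 4.45 and 4.59 at 1 d and did not pass on any day. The Cox7c probe on the opposite strand read −2.66, −2.86 and −2.64 at 0 d and −2.30, −2.21 and −2.44 at 1 d. Its 1 d arrays lay above all its controls, but it did not pass on any day. Among DRG 0 d arrays the 3 rising probes were all lowest on replicate 1 (−1.84, 0.82 and −5.39 against −0.20, 1.95 and −4.03 or more on the others), and among SN 4 d arrays all lowest on replicate 3. What sets these probes apart was not tested.

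Between later days fewer members moved. From 1 to 4 d in SN, 10 of 96 fell (10.4%) and 6 rose (6.25%), against 20.7% and 17.2% of all probes, and from 4 to 14 d 5 fell (5.21%) and 1 rose (1.04%), against 14.9% and 13.9%. The differences in these comparisons do not use the 0 d arrays, but the spread in the fit does. In both, the members' shares that passed were below those of all probes. For 32 of 96 members all 4 d arrays lay below all 1 d arrays, against 33.3% of all probes. They lay above for 16, against 25.9%.

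In DRG fewer members passed the test than in SN. At 1 d 3 of 97 rose (3.09%) and 1 fell (1.03%), against 14.9% and 3.28% of all probes tested. At 4 d 10 rose (10.3%) and 3 fell (3.09%), against 22.6% and 8.63%. At 7 d none rose and 7 fell (7.22%), against 16.9% and 6.87%, and at 14 d 10 rose (10.3%) and 6 fell (6.19%), against 28.9% and 9.63%. Member medians were 0.01, 0.10, −0.09 and 0.00, and 69 probes passed on no day. Of the rises at 4 and 14 d, 4 and 3 belonged to opposite-strand probes. The direction at 4 and 14 d depended on scaling. With quantile normalization 4 members rose and 11 fell (11.3%) at 4 d, and 5 rose and 16 fell (16.5%) at 14 d. Of all probes, 12.3% rose and 12.5% fell at 4 d under that scaling, and 16.7% and 19% at 14 d. At 7 d it gave 16 falls (16.5%) and no rise among members, whereas 10% of all probes fell.

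Single arrays also decided the DRG counts. At 4 d the array medians were −0.12, 0.21 and 0.12, and without DRG 4 d replicate 1 28 members rose and 4 fell, whereas without replicate 2 the counts were 2 and 3 and without replicate 3 they were 2 and 2. From 1 to 4 d, 7 members passed, against 20.0% of all probes, and without DRG 4 d replicate 1 27 did. Shares of all probes without single DRG arrays were not counted. Whether these member counts moved with those of all probes is therefore not known. From 4 to 14 d no member passed the limma test, against 0.718% of all probes, with 5 members at an unadjusted p under 0.05 and none by the methods' t-test after adjustment.

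Atp5a1 was the single member that fell on all 4 days in DRG. It read 4.90, 4.87 and 4.82 at 0 d, 4.63, 4.60 and 4.65 on day 1, 4.37, 4.37 and 4.18 at 4 d, 4.40, 4.44 and 4.44 on day 7 and 4.25, 4.36 and 4.20 at 14 d, with no later array within the range of the controls. The changes were −0.24, −0.56, −0.44 and −0.59 ± 0.07 (limma adjusted p = 0.043, 0.00029, 0.0013 and 0.00011), and the 1 d call was lost after quantile normalization (−0.27, limma adjusted p = 0.071). Ndufs1 read 3.20, 3.08 and 3.13 at 0 d, fell to 2.81, 2.29 and 2.10 at 4 d (−0.74 ± 0.17, limma adjusted p = 0.0076) and to 2.30, 2.62 and 2.52 at 14 d (−0.66 ± 0.17, limma adjusted p = 0.0095). Its 4 d and 14 d arrays lay below all controls.

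Other complex I and II members fell at 7 d in DRG. Ndufv2 went from 5.96, 5.96 and 5.91 at 0 d to 5.65, 5.70 and 5.70 (−0.26 ± 0.08, limma adjusted p = 0.03) and Sdha fell by 0.34 ± 0.09 (limma adjusted p = 0.02). Complex IV members rose where they passed. Cox4i1 rose from 4.57, 4.08 and 4.42 at 0 d to 4.59, 4.93 and 4.79 at 4 d (0.41 ± 0.12, limma adjusted p = 0.024), a call lost after quantile normalization (0.31, limma adjusted p = 0.053). Cox4i2 rose from 0.50, 0.72 and 0.65 at 0 d to 0.97, 1.08 and 1.24 at 14 d (0.48 ± 0.11, limma adjusted p = 0.0045), with the groups apart.

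Cox6a2 had the highest rise in DRG among transcript-strand probes that passed. It read −1.21, 0.40 and −0.38 at 0 d and 0.55, 1.03 and 0.89 at 1 d (1.22 ± 0.31, limma adjusted p = 0.016). The muscle list stood at 5.04, 8.0 and 6.38 on the DRG 0 d arrays and between 7.80 and 7.92 at 1 d, and its part in this rise was not tested. Of the 3 member probes that rose in DRG at 1 d, Cox6a2 among them, 1 also rose under quantile normalization.

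Whether the change differed between the tissues was tested by the interaction in 1 fit over all 30 arrays. At 1 d the change of 20 of 96 members was lower in SN than in DRG (20.8%) and that of 4 higher (4.17%), against 19.7% and 15.9% of all probes, and at 4 d 34 were lower (35.4%) and 5 higher (5.21%), against 25.2% and 20.1%. At 7 d 21 were lower (21.9%) and 2 higher (2.08%), against 20.4% and 17.6%, and at 14 d 30 were lower (31.2%) and 1 higher (1.04%), against 19.4% and 12.9%. Of the bright probes, 31.0% to 38.2% were lower.

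These interactions depended on the arrays and the slides. Without SN 0 d replicate 1, 16, 26, 14 and 20 members were lower and 10, 8, 5 and 4 higher at 1, 4, 7 and 14 d. With slide as a fixed term, 3, 15, 8 and 3 of 96 members passed, against 15.4%, 30%, 24.8% and 18.5% of all probes. The median over members at 7 d, −0.18, turned to 0.02 with quantile normalization.

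Ndufa11 differed between the tissues on each day. In DRG it read 1.98, 1.84 and 1.84 at 0 d and 1.99, 2.11 and 2.16 at 14 d, while in SN it went from 2.29, 2.26 and 2.23 to 1.64, 1.48 and 1.65, and the 2 changes differed by −0.87 ± 0.12 (limma adjusted p = 4.4e-06). For Ndufv2 the changes at 7 d differed by −0.82 ± 0.11 (limma adjusted p = 2.9e-06), although both tissues fell. For the Uqcrb probe printed above they differed by −1.10 ± 0.15 at 4 d (limma adjusted p = 3.8e-06), with SN falling to −1.20, −1.14 and −1.05 and DRG at 0.58, 0.90 and 0.86. Atp5a1, which fell in DRG alone by its test, did not pass the test of the difference between tissues on any day with all arrays (0.33 ± 0.21 at 4 d, limma adjusted p = 0.21). Its changes differed on all 4 days without SN 0 d replicate 1, by 0.42, 0.64, 0.41 and 0.46, higher in SN (limma adjusted p between 4.1e-05 and 0.0035).

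Of the 9 probes on the opposite strand of subunit genes, 2, 4, 0 and 3 rose in DRG at 1, 4, 7 and 14 d and none fell, that is 22.2%, 44.4%, 0% and 33.3% against 14.9%, 22.6%, 16.9% and 28.9% of all probes. A probe opposite Cox8b had the largest rise, 1.19 at both 1 and 14 d (limma adjusted p = 0.03 and 0.016). The probe opposite Cox5a rose by 0.54, 0.75 and 0.51 at 1, 4 and 14 d (limma adjusted p = 0.026, 0.0037 and 0.019). At 4 d the probes opposite Ndufs8, Ndufc2 and Ndufb3 rose by 0.59, 0.67 and 0.57 (limma adjusted p = 0.0042, 0.012 and 0.033), and that opposite Ndufs8 again at 14 d, by 0.62 (limma adjusted p = 0.0021). In SN, 1 of 8 fell at 1 d and 1 at 4 d, and none rose. Both probes opposite Cox8b rose without SN 0 d replicate 1 at 1 and 14 d and one of them at 7 d. Cox5a on its transcript strand did not pass in DRG. Many DRG rises were lost under quantile normalization. Of all 3, 10 and 10 members that rose at 1, 4 and 14 d, 1, 4 and 5 also rose under that scaling.

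Other genes of mitochondrial function, and of glycolysis in the cytosol, were counted in SN from lists of pathway genes. Of all probes, 24.9%, 25.2%, 24.1% and 20.8% fell and 36.7%, 35.9%, 38.3% and 35.3% rose at 1, 4, 7 and 14 d. Of 24 probes of the citric acid cycle and pyruvate dehydrogenase, 7, 11, 13 and 14 fell and 3, 2, 1 and 0 rose, and 3, 9, 10 and 13 fell and 9, 8, 4 and 1 rose without SN 0 d replicate 1. Of 17 probes named for mitochondrially encoded subunits, 3, 7, 5 and 11 fell and 4, 1, 3 and 0 rose, and without that array 3, 7, 5 and 10 fell and 8, 4, 7 and 4 rose. Assembly factors, which build the complexes and stay outside them, had 35 probes, of which 12, 14, 16 and 15 fell and 12, 9, 6 and 3 rose. Leaving out the array changed these to 11, 13, 13 and 15 falls and 12, 10, 7 and 2 rises. Of 85 probes of the mitochondrial ribosome, 16, 22, 27 and 28 fell and 25, 17, 9 and 1 rose, or 13, 22, 24 and 26 and 27, 20, 15 and 7 without it. Glycolysis had 22 probes, with 4, 7, 8 and 10 falls and 12, 9, 5 and 4 rises, or 4, 6, 8 and 9 falls and 15, 12, 7 and 4 rises without it. At 1 d, 3 of the 5 lists, glycolysis among them, held more rises than falls with all arrays, and all 5 did without SN 0 d replicate 1.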

How the data were processed

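Total RNA was labelled with Cy3 and hybridized to 1-colour Agilent rat arrays. Feature Extraction 10.5.1.1 is named in the scanner files, and the intensity values the authors deposited were background-subtracted within the array and not normalized between arrays. The authors also deposited log2 values, equal in distribution on all 30 arrays, used as an alternative. Outlier spots were left out, log2 intensities were averaged per probe, and each array's 75th percentile was subtracted. A probe was tested in a tissue when it stood well above background on every array of at least 1 day. Each array had 26941 to 35573 probes well above background, and none was saturated. In each tissue the 0 d arrays had the fewest of them. They had 30227 to 31317 in SN and 26941 to 32602 in DRG, against at least 33079 and 33690 on later days. The 75th percentiles of the SN 0 d arrays were 10.224 to 10.344, below the 10.568 to 10.999 of later SN arrays. The part of these differences in the changes against 0 d was not tested. Signal over background and 3 arrays per group limit the precision. Each tissue was fitted on its 15 arrays, and comparisons between tissues on 30, with limma 3.58.1 (statmod 1.5.0, R 4.3.3) and Benjamini-Hochberg adjustment at 0.05. The fit was tested on simulated data. A change that missed the threshold is not shown to be absent. The values of 1 member gene are not reported here, although it is included in the counts and medians. Named were isoform sets, core subunits, and the 3 members with the largest rise, fall or difference between tissues per comparison that passed, others being named after their values were seen. Gene names are the array's, with current symbols from RefSeq. The members, lists and tests were chosen with earlier results of these data known. Alternatives changed the normalization, background correction, filter, test, slide and scan block, replicate block and single arrays.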

Additional observations from a re-analysis of the deposited data

Results flagged for a closer look

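The change of some members differed between SN and DRG by the interaction in the limma fit over 30 arrays. At 1 d this held for 24 of 96 member probes, at 4 d for 39, at 7 d for 23 and at 14 d for 31. Most of these members were lower in SN, as given above. Of all probes, 19.7%, 25.2%, 20.4% and 19.4% were lower in SN on these days and 15.9%, 20.1%, 17.6% and 12.9% higher. With slide as a fixed term the member counts were 3, 15, 8 and 3, against 15.4%, 30%, 24.8% and 18.5% of all probes.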

How the results depend on the processing

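Direction and threshold held in most but not all settings. Under the alternatives 240 counts stayed within 1.5 times the value reported above and 72 did not, 280 medians moved by less than the spread between arrays, 30 by more and 2 turned, and for named genes the call was kept in 1371 settings, lost in 372 and turned in none. The cause of these differences was not tested. With the methods' t-test, members past the threshold in SN numbered 25, 32 and 23 on days 4, 7 and 14, against 43, 49 and 48 with limma, and in DRG 2, 1 and 13 on days 1, 4 and 7, against 4, 13 and 7. Of all probes, 45.2%, 54% and 32.5% passed with the t-test in SN on these days, and 5.91%, 5.05% and 14.8% in DRG. The SN count at 14 d was 27 with quantile normalization, 30 with normexp background correction and quantile normalization together (normexp below) and 27 with the authors' values. The shares of all probes were 51.8%, 50.2% and 51.7% in turn. In DRG quantile normalization gave 1 at 1 d and 16 at 7 d, normexp 25, 18 and 27 at 4, 7 and 14 d, and the authors' values 1 at 1 d and 13 at 7 d. In the same order, the shares of all probes were 16.4% and 20.5%, then 24.8%, 19.6% and 34.6%, then 16.4% and 20.4%. Between later days, SN 4 d against 1 d (16) gave 25 with normexp and 8 with slide as a random block, SN 14 d against 4 d (6) gave 3 with that block, and DRG 4 d against 1 d (7) gave 15 with quantile normalization, 15 with normexp, 14 with the authors' values, 4 without a filter, 0 with the t-test and 3 with a replicate block. In the same order, the shares of all probes were 39% and 23%, then 19.3%. For the DRG comparison they were 20.8%, 21.7%, 20.8%, 14.8%, 1.84% and 15.3%. Slide as a random block also gave 31 for SN at 7 d, against 48.8% of all probes. For the difference between tissues, the t-test gave 20 at 4 d and 14 at 14 d, quantile normalization 13, normexp 11 and the authors' values 13 at 14 d, and slide as a fixed term, added after the data were seen, 3, 15, 8 and 3 at 1, 4, 7 and 14 d. Here the t-test passed 33.2% and 22.4% of all probes, and the scalings 30.8%, 30.7% and 30.6% in turn. The fixed term passed 15.4%, 30%, 24.8% and 18.5%. The median difference at 7 d, −0.18, became 0.02 with quantile normalization and 0.01 with the authors' values. Counting transcript-strand subunit probes alone, also added later, left 2 at 1 d and 8 at 4 d in DRG.

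Replicate numbers were not used to pair the arrays, and whether same-numbered arrays share rats is not stated. Deviations of same-numbered arrays correlated between −0.52 and 0.35 across days and between −0.23 and 0.32 between tissues. With 3 arrays per group, these values cannot decide whether arrays are paired. A replicate block gave 42, 41, 48 and 45 in SN and, in DRG, 8 at 4 d and 3 at 7 d. With that block 60.5%, 59.7%, 61% and 54.6% of all probes passed in SN, and 26.4% and 20% in DRG. Leaving out 1 array at a time gave 32 to 45, 35 to 52, 41 to 58 and 35 to 56 in SN at 1, 4, 7 and 14 d, 9 to 15 and 3 to 9 for SN 4 d against 1 d and 14 d against 4 d, 0 to 4, 4 to 32, 2 to 7 and 7 to 13 in DRG, 1 to 27 and 0 to 0 between later DRG days, 61 to 71 for SN 0 d against DRG 0 d, and 16 to 27, 29 to 52, 15 to 27 and 20 to 38 for the difference between tissues. Shares of all probes with 1 array left out are not given here. Scan session as a random block could not be fitted in SN, where no day spans sessions. Signal over background limits the dim probes, above all Cox6c1 and Uqcrq.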

Other observations

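Further lists of mitochondrial genes gave these counts in SN at 1, 4, 7 and 14 d, beside 20.8% to 25.2% of all probes that fell and 35.3% to 38.3% that rose. Of 15 probes of metabolite carriers and the electron transfer flavoprotein, which brings electrons from fatty acid oxidation, 2, 4, 6 and 4 fell and 5, 4, 5 and 3 rose, and without SN 0 d replicate 1 1, 1, 3 and 3 fell and 8, 5, 6 and 3 rose. Of 15 probes of regulators of mitochondrial biogenesis, 3, 2, 3 and 4 fell and 3, 4, 3 and 3 rose, or 2, 2, 3 and 3 and 4, 4, 4 and 4 without that array. Of 7 probes of cytochrome c and of subunits whose names the rule does not match, 0, 0, 2 and 2 fell and none rose, or 0, 0, 1 and 1 fell and 4, 1, 0 and 0 rose without it.

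In DRG, where fewer members passed than in SN, 2, 7, 5 and 9 of 24 probes of the citric acid cycle and pyruvate dehydrogenase fell and none rose at 1, 4, 7 and 14 d. Of 16 probes of the biogenesis regulators 3, 6, 4 and 7 fell and 1, 1, 0 and 2 rose. The probes named for mitochondrially encoded subunits showed 0, 6, 0 and 3 falls among 17, and the assembly factors 1, 7, 3 and 5 among 35. Over all probes tested in DRG, 3.28%, 8.63%, 6.87% and 9.63% fell.

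Of the genes that share a subunit's name without being one, Cox4nb, now Emc8, rose in SN on all 4 days, by 0.65, 0.51, 0.25 and 0.22, and without SN 0 d replicate 1 on 3 of them. Atp5s, now Dmac2l, fell on all 4 days by 0.41 to 0.74.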
